A study of Homo sapiens with 4 samples.

Results

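Accessible chromatin was examined at 10 genes of the BCL2 family, namely BCL2A1, BCL2, BCL2L1, MCL1, BAX, BCL2L11, BBC3, PMAIP1, BMF and BID. A region of open chromatin was counted for a gene when it overlapped the gene's RefSeq span (GRCh38.p14) extended by 10 kb on both sides. This gave 46 of the 125986 regions listed for the study, of which 31 overlapped a gene span and 15 lay in the extension. Another protein-coding gene was nearer, or was overlapped, in 4 of the 46: a pair beside FTL counted for BAX, 1 within ACOXL counted for BCL2L11 and 1 beside MICAL3 counted for BID. The regions closest to the 10 kb limit from inside lay 7.02 kb from BID (log2 fold change 0.61) and 7.05 kb from BCL2A1 (0.14), and those closest from outside lay 11.2 kb from BBC3 (-0.34) and 12.1 kb from MCL1 (0.14), in the authors' deposited table.

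The cells were A375, an established human melanoma line, grown in DMEM with 10% FBS. Octanoate, a medium-chain fatty acid, was given at 1 mM for 48 h to the cells of 2 libraries, and isopropanol, its vehicle, to the cells of the other 2; the labels name no genetic change in either group. Open DNA was tagged with Tn5 transposase (ATAC-seq) in bulk, so a region open in more cells cannot be told apart from one more open in each cell. The labels do not say that the libraries came from separate cultures, so the p-values measure only the spread between these libraries, which may be technical.

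BCL2 family proteins decide at the outer mitochondrial membrane whether a cell undergoes apoptosis. The anti-apoptotic members bind and hold back the pore-forming members, and the BH3-only members, which are raised or activated by stress, block the anti-apoptotic ones or activate the pore formers. In melanoma, BCL2A1 and BCL2 are known targets of the melanocyte transcription factor MITF, and BCL2L11 and BMF are restrained by ERK signalling.

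The start of each gene was read from RefSeq promoter windows, which run from 250 bases before to 50 bases after a start; 9 of the 10 members had at least 1 window, and MCL1 was not among them. The windows below are shown for 3 reasons. They belong to the start region with the highest fold change (BCL2A1), to the pore-forming gene (BAX) and to the BH3-only starts of highest mean signal (BCL2L11 and PMAIP1). Per kb of region the BH3-only start of BMF was higher than those of BCL2L11 and PMAIP1. They are written 5′ to 3′ on the gene's strand, with capitals marking matches to the motifs searched on both strands.

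BCL2A1, chr15:79971147-79971446, minus strand: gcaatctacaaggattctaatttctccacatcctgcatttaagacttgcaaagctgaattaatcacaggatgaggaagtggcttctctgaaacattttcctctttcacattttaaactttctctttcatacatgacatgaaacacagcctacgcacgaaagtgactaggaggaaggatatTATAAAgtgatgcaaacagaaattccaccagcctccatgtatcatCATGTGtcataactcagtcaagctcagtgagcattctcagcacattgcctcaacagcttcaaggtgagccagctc
BAX, chr19:48954625-48954924, plus strand: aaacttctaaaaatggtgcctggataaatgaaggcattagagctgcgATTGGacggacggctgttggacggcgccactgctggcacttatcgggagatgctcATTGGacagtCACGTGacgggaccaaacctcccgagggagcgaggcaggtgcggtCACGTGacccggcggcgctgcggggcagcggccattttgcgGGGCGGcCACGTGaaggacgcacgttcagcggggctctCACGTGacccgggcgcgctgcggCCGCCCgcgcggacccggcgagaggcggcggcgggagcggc
BCL2L11, chr2:111120664-111120963, plus strand: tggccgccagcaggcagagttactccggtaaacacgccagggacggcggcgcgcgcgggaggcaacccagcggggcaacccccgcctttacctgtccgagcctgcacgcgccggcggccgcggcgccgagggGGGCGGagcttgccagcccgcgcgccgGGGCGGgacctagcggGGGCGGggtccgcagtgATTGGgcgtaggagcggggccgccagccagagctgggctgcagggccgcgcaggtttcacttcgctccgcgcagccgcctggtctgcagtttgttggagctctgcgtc
PMAIP1, chr18:59899746-59900045, plus strand: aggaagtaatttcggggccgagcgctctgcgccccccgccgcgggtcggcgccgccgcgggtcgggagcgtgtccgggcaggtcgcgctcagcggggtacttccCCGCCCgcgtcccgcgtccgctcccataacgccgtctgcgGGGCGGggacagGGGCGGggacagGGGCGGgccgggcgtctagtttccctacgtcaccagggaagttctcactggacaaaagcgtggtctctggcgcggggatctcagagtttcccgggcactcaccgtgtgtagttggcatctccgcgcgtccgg

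The motifs were CACGTG and CATGTG (E-box forms that MITF and MYC can bind), TGANTCA (AP-1), TGACGTCA (CRE), GGGCGG (GC box), CCAAT and TATAAA; no pair of capital stretches above overlaps. The BCL2A1 window was AT-rich, with 41.0% G or C and 2 CpG dinucleotides, against medians of 58.7% and 14 over 34796 windows of the same length. It held CATGTG at position -25 and TATAAA at position -70 (the start base being 0); 11.1% and 11.6% of all windows hold these motifs. The BAX window held CACGTG at 4 places, where 7.20% of all windows hold it at least once and 5 windows hold at least 4 copies. GC boxes, present in 44.9% of all windows, occurred 3 times in the BCL2L11 window and 4 times in the PMAIP1 window, which had 74.7% and 71.3% G or C. These matches describe the letters in the windows and show no binding.

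The deposited file is a finished comparison of octanoate with vehicle, with 1 row a region and no value for a labelled library. Signal is the normalized read count averaged across the 4 libraries; the log2 fold change is octanoate over vehicle, and its standard error (SE) comes with it. An adjusted p was worked out by the authors only for regions with a mean of at least 63.8, called tested here, and 7 of the 46 member regions reached this signal: a region each of BCL2A1, BCL2, BCL2L1, BCL2L11 and PMAIP1, and both regions of MCL1. BAX, BBC3, BMF and BID had no tested region. The starts of MITF, AXL and EGFR, marker genes of melanoma states, had regions with means of 168, 61.7 and 73.9 in the authors' deposited table. Those of SOX10, PMEL, DCT and NGFR had lower means, at 15.7, 34.2, 30.0 and 28.4. Per kb of region the order differed. The highest values were 59.3 for PMEL, 58.9 for EGFR, 57.5 for AXL, 54.8 for MITF, 52.0 for NGFR, 31.4 for DCT and 29.6 for SOX10. No region was listed within 1 kb of the starts of TYR and MLANA. The genes without a RefSeq window, SOX10, PMEL, NGFR, CD3E and EPCAM, were searched at both ends of their span. Of the genes of other lineages, PTPRC, EPCAM and ALB had no listed region within 1 kb of the places searched. CD3E had 1 with a mean of 70.1 in the authors' deposited table, at an end of its span that may not be its start.

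No member region passed the authors' threshold. In the authors' deposited table (DESeq2, Benjamini-Hochberg), 0 of the 7 tested member regions had an adjusted p under 0.05, where 1.02% of all 11185 tested regions did. At an unadjusted p under 0.05 there was 1 of these 7, the region beyond the end of MCL1, and it was higher after octanoate; 14.8% of all tested regions were higher at that level. Over all 46 regions, 2 had an unadjusted p under 0.05 (4.35%), at BCL2A1 and MCL1, both higher, against 3.76% of all nuclear regions in either direction and 3.58% in the higher direction. The members' shares thus lie near those of the whole table.

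Fold changes of the 46 regions had a median of 0.15 on the log2 scale, from -0.89 to 1.37, beside a median of 0.23 over the 125985 nuclear regions in the authors' deposited table. The 7 tested member regions had a median of 0.14 and all tested regions 0.19. Above 0 stood 36 of the 46 (78.3%), compared with 72.1% of nuclear regions. Because the whole table is shifted upward, the split changes with its centre: relative to the tested median 21 were above and 25 below. The normal 95% interval of a single region, drawn from its SE, included 0 in 44 of the 46. SEs ran from 0.17 to 1.28 with a median of 0.48, and at that median a log2 fold change of 0.94 would be needed for an unadjusted p of 0.05. A smaller estimate would not reach that level in a region with the median SE. This bound concerns the estimate and is not a limit on the true change.

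**Figure D1:**
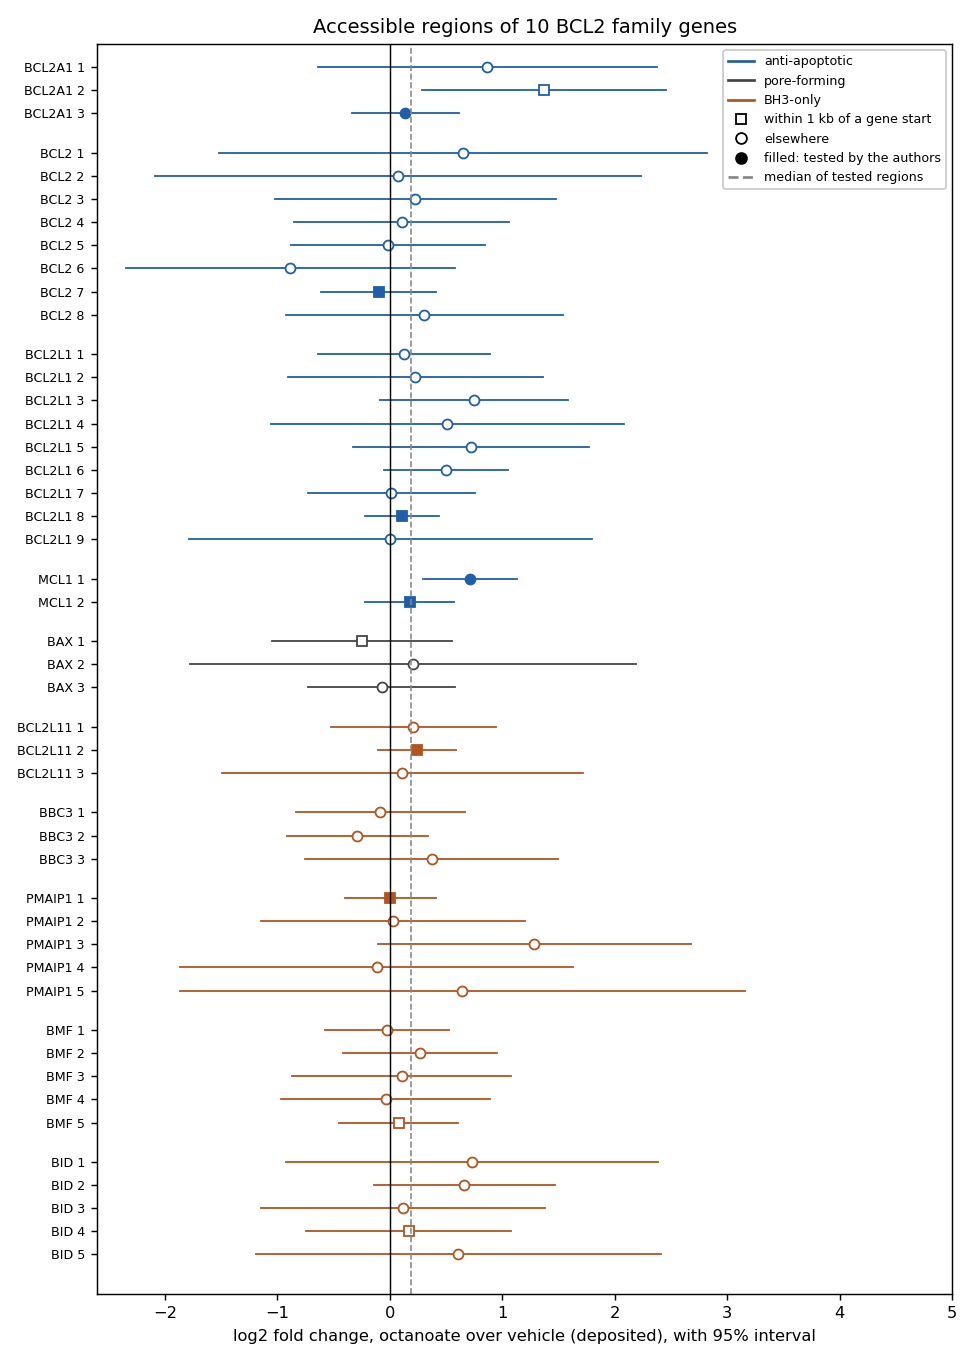
Each row is a member region, numbered along the chromosome within its gene, with the deposited log2 fold change of octanoate over vehicle on the x axis and a line for its 95% interval; squares lie within 1 kb of a gene start, filled symbols were tested by the authors, and the dashed line is the median of tested regions (0.19). The intervals of BCL2A1 2 and MCL1 1 stay above 0 and the other 44 cross it.

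The anti-apoptotic genes BCL2A1, BCL2, BCL2L1 and MCL1 had 22 regions, whose log2 fold changes had 0.20 as their median, and 19 of them (86.4%, against 72.1% of nuclear regions) stood above 0. The 21 regions of the BH3-only genes had a median of 0.11 with 16 (76.2%) above 0. The 3 regions of BAX had a median of -0.07, which is the value of the region at FTL. The only one that overlaps the BAX span had -0.25. The difference between the classes was not tested. The 2 regions with an unadjusted p under 0.05 were 9.09% of the 22 anti-apoptotic regions, against 3.76% of nuclear regions, and a count this small says little about the class.

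BCL2A1 encodes BFL1, an anti-apoptotic protein known for its role in melanoma survival, and lies on chromosome 15 (79960892 to 79971196). It had the highest gene median of the family in the authors' deposited table, 0.87 over 3 regions, beside 0.39 for the 100 other regions within 1 Mb. With a 50 kb extension its median was 0.42, below that of BID at 0.51. The region at its start, which covers 271 of the 300 bases printed above (79970919 to 79971417), had a mean of 15.4 and a log2 fold change of 1.37 (SE 0.55, unadjusted p 0.0131, 95% interval 0.29 to 2.45) in the authors' deposited table. If the fold change is the ratio of the group means, this stands for 8.57 normalized reads with vehicle and 22.2 with octanoate, a 2.59-fold difference. The region lay below the signal the authors tested, and adjusted over every listed region its p was 0.999. It rested on 142 reads over the 4 libraries together.

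A second BCL2A1 region, 3.47 kb into the gene, had a mean of 7.84 and a log2 fold change of 0.87 (SE 0.77, p 0.259) in the authors' deposited table. Its 4 libraries held 4.61, 6.47, 9.54 and 10.7 normalized reads, given here from lowest to highest. The lower pair averaged 5.54 and the higher pair 10.1, beside implied levels of 5.55 with vehicle and 10.1 with octanoate. The strongest BCL2A1 region stood 7.05 kb upstream of the gene (79978244 to 79979356), with a mean of 73.2 and a log2 fold change of 0.14 (SE 0.24, adjusted p 0.827) in the authors' deposited table. The weak regions of this gene thus had the larger fold changes and the wider errors, while its strong upstream region differed by less than its SE.

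MCL1, a short-lived anti-apoptotic protein, lies on chromosome 1 (150574558 to 150579610) and was the only member with 2 tested regions. A broad region 1.87 kb outside its span (150567774 to 150572685) had a mean of 103 and a log2 fold change of 0.71 (SE 0.21, unadjusted p 0.000746, adjusted p 0.0565) in the authors' deposited table. The implied levels were 77.9 normalized reads with vehicle and 128 with octanoate. This was the lowest adjusted p of the family, and 146 tested regions had a lower p. Relative to the tested median the difference was 0.53, with a p of 0.0128 and an adjusted p of 0.931. The region is 4912 bp wide, a width reached by 0.0429% of nuclear regions, and at 20.9 normalized reads per kb it lies below their median of 27.8. It overlaps ADAMTSL4-AS1 and RN7SL600P, a pseudogene of the repeated 7SL RNA, and how reads of near-identical copies were placed is not given in the sources used here.

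The other MCL1 region (150578914 to 150580118) overlaps the higher-coordinate end of the gene span and was the densest of all member regions, at 90.2 normalized reads per kb. Its log2 fold change was 0.18 (SE 0.20, adjusted p 0.716) in the authors' deposited table, and -0.01 relative to the tested median. The 106 other regions within 1 Mb of MCL1 had a median of 0.20.

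BCL2L1 encodes BCL-XL, an anti-apoptotic protein, and spans chromosome 20 from 31664452 to 31723963. All 9 of its regions had log2 fold changes above 0 in the authors' deposited table, from 0.003 to 0.75 with a median of 0.23, and relative to the tested median 5 stood above and 4 below. Its start region, which holds both promoter windows of the gene, carried the highest signal of the family, with a mean of 159 and a log2 fold change of 0.11 (SE 0.17, adjusted p 0.795) in the authors' deposited table. The larger values lay inside the gene, where BCL2L1-AS1 is also annotated: 0.50 (SE 0.28, p 0.0766) at 10.8 kb from the start, 0.72 (SE 0.53) at 19.3 kb, 0.51 (SE 0.80) at 24.6 kb and 0.75 (SE 0.43, p 0.0808) at 27.7 kb, in the authors' deposited table. None of these intervals excludes 0.

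BCL2, the founding member of the family, has the longest span, 197 kb on chromosome 18 (63123346 to 63320090), with 8 regions. Its start region (63319431 to 63321326) had a mean of 65.7, just above the lowest tested, and a log2 fold change of -0.10 (SE 0.26, adjusted p 0.889) in the authors' deposited table. The lowest fold change of the family, -0.89 (SE 0.75, p 0.234), belonged to a weak region 1.67 kb inside the gene, with a mean of 8.16, in the authors' deposited table. Its libraries held 5.37, 6.07, 9.92 and 11.3 normalized reads, and here the lower pair averaged 5.72, the level implied for octanoate, and the higher pair 10.6, that implied for vehicle. The gene median of 0.09 lay beside 0.08 for the 102 other regions within 1 Mb.

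**Figure D2:**
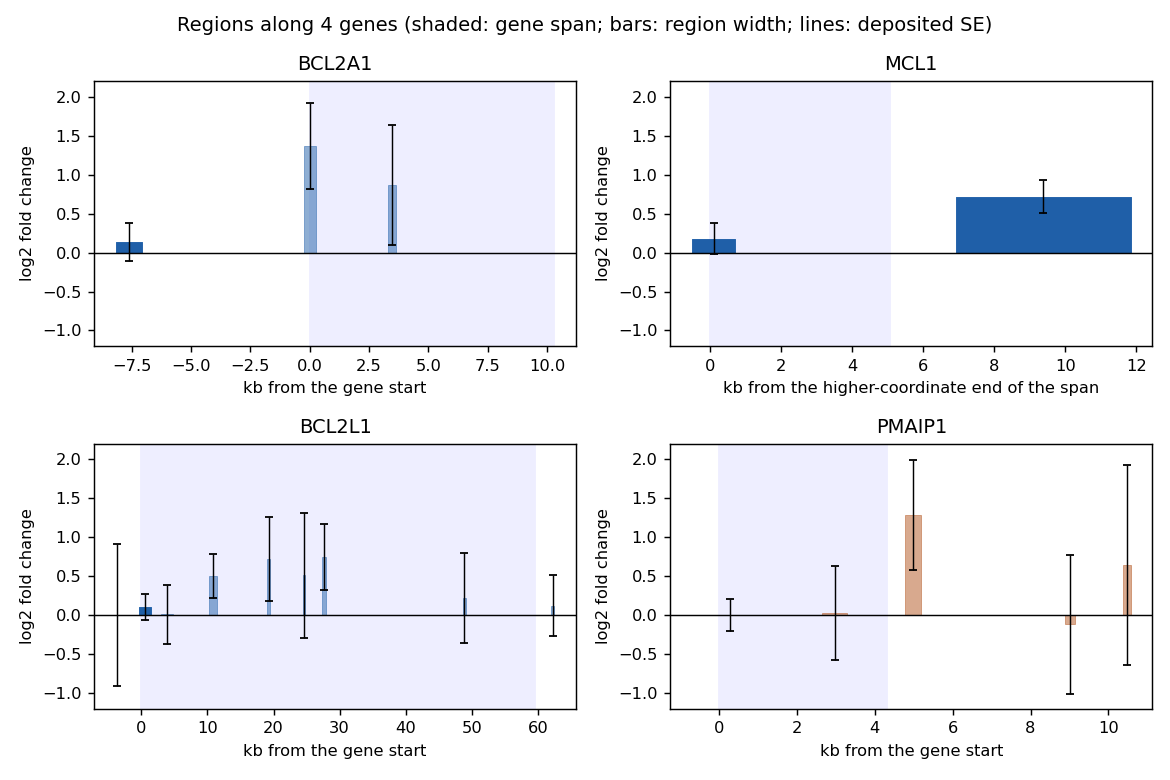
Panels show BCL2A1, MCL1, BCL2L1 and PMAIP1, with distance in kb on the x axis (from the gene start, or for MCL1 from the higher-coordinate end of its span), the log2 fold change on the y axis, bars as wide as each region, solid where tested, thin lines for 1 deposited SE and shading for the gene span. The highest values are those of the BCL2A1 start (1.37) and of PMAIP1 3 (1.28), the region 1.87 kb outside the MCL1 span has 0.71, and the starts of BCL2L1 (0.11) and PMAIP1 (0.004) lie near 0.

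BAX, the pore-forming member, lies on chromosome 19 (48954875 to 48961798). The region that covers its whole promoter window had a mean of 27.3 and a log2 fold change of -0.25 (SE 0.41, p 0.548) in the authors' deposited table. The strongest region counted for BAX, with a mean of 40.7, lies at FTL, the ferritin light chain gene, and had -0.07 (SE 0.33) in the authors' deposited table. The remaining region held 4.10, 4.13, 4.75 and 6.07 normalized reads in the 4 libraries, a narrow spread, and its log2 fold change was 0.20 (SE 1.01) in the authors' deposited table.

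BCL2L11 encodes BIM, a BH3-only protein that binds every anti-apoptotic member. Its start region on chromosome 2 (111120298 to 111123456) had a mean of 145, the second highest of the family, and a log2 fold change of 0.24 (SE 0.18, adjusted p 0.538) in the authors' deposited table. The implied levels were 133 normalized reads with vehicle and 157 with octanoate. The 52 other regions within 1 Mb had a median of 0.005. The pair of weaker regions had 0.21 (SE 0.37) upstream, within ACOXL, and 0.11 (SE 0.82) at the far end, in the authors' deposited table.

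PMAIP1 encodes NOXA, a BH3-only protein that mainly neutralises MCL1. Its start region on chromosome 18 (59899312 to 59901255) had a mean of 111 and the fold change closest to 0 of the tested members, 0.004 (SE 0.21, 95% interval -0.40 to 0.41, adjusted p 0.995), in the authors' deposited table. A weak region 0.481 kb beyond the gene (59904786 to 59905176) had a mean of 9.28 and a log2 fold change of 1.28 (SE 0.71, p 0.0704) in the authors' deposited table. Its libraries held 5.18, 5.63, 12.0 and 14.3 normalized reads, so a pair was low and a pair high. The lower pair averaged 5.40 and the higher pair 13.15, beside implied levels of 5.40 with vehicle and 13.15 with octanoate. The other 3 PMAIP1 regions had log2 fold changes of -0.12, 0.03 and 0.65, each smaller than its SE, in the authors' deposited table.

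BBC3 encodes PUMA, a strong BH3-only inducer of apoptosis. Its 3 regions lie inside the span on chromosome 19 (47220824 to 47232860), 1.90 to 6.54 kb from the end where it starts, and none overlaps its promoter window. The strongest, with a mean of 42.6, had a log2 fold change of -0.29 (SE 0.32, p 0.368) in the authors' deposited table; the others had -0.08 (SE 0.38) and 0.37 (SE 0.58). BMF encodes a BH3-only protein linked to the cytoskeleton. Of its RefSeq starts 1 of 2 lay in a region (chromosome 15, 40108658 to 40109532), which had a mean of 62.3, just under the tested signal, and a log2 fold change of 0.08 (SE 0.27, p 0.768) in the authors' deposited table. Its 5 regions stayed between -0.04 and 0.27.

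BID encodes a BH3-only protein that links death receptors to mitochondria and spans chromosome 22 from 17734138 to 17774665. Its gene median was 0.61 over 5 weak regions in the authors' deposited table, beside 0.23 for the 58 other regions within 1 Mb. Its place in the order of gene medians moved with the extension: second at 10 kb, first at 50 kb (0.51), and behind BCL2A1 (1.12) and BCL2L1 (0.50) with none (0.41). The strongest, 20.8 kb into the gene, had a mean of 26.1 and a log2 fold change of 0.66 (SE 0.41, p 0.108) in the authors' deposited table. Its start region held fewer reads per length than any other start of the family, 17.4 per kb, and had a log2 fold change of 0.17 (SE 0.47) in the authors' deposited table. The 95% interval of each BID region included 0.

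Start regions ordered by signal per kb ran from MCL1 (90.2, at an end of its span) through BCL2L1 (87.9), BMF (71.2), PMAIP1 (56.9), BAX (46.1), BCL2L11 (45.8), BCL2 (34.6) and BCL2A1 (30.8) to BID (17.4), in normalized reads per kb of region. No value per labelled library exists here, so which neighbours in this order differ beyond their spread was not tested. Of these 9 start regions 7 stood above 0 (77.8%), and of the 37 regions elsewhere 29 did (78.4%). The share was 72.1% over all nuclear regions and 85.7% over all tested regions. Median fold changes on the log2 scale were 0.11 at the starts and 0.20 elsewhere, beside the tested median of 0.19. Relative to that tested median only the starts of BCL2A1 (1.18) and BCL2L11 (0.05) stood above 0. Those of BCL2 (-0.29), BCL2L1 (-0.08), MCL1 (-0.01), BAX (-0.43), PMAIP1 (-0.18), BMF (-0.11) and BID (-0.02) stood below. BCL2A1, next to last per kb and lowest in mean signal, had the only start with an unadjusted p under 0.05.

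**Figure D3:**
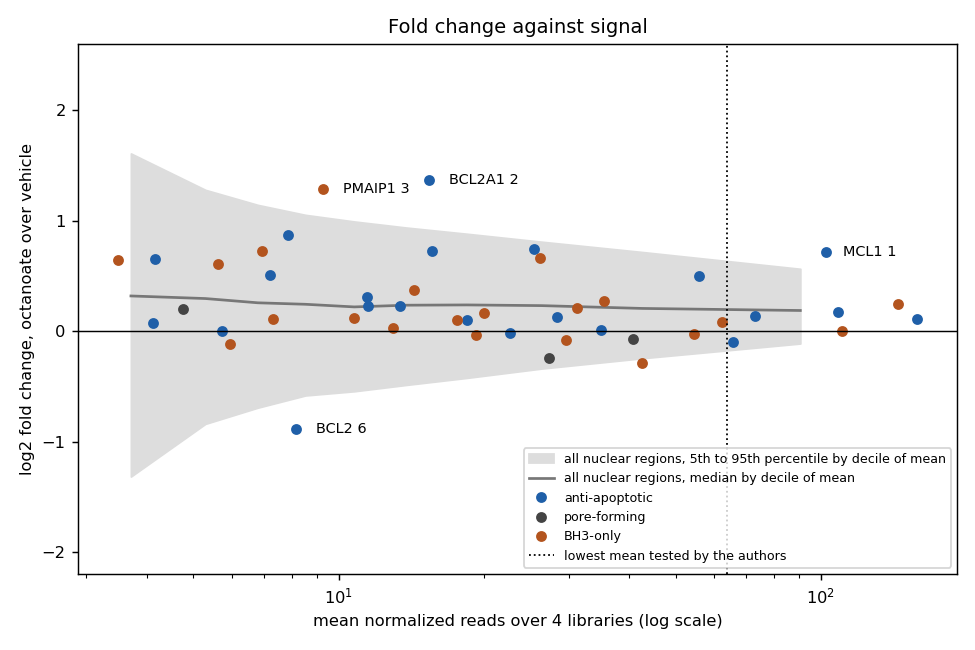
Each point is a member region by its mean normalized reads (x, log scale) and its log2 fold change (y), coloured by class, over the median and the 5th to 95th percentile of all nuclear regions in deciles of mean; the dotted line is the lowest tested mean, 63.8. The band runs from 3.71 to 90.7, the median means of the lowest and highest deciles, and regions outside that range have no band at their position. The regions BCL2A1 2 (1.37) and PMAIP1 3 (1.28) lie above the band. BCL2 6 (-0.89) and, narrowly, BBC3 2 (-0.29) lie below it. MCL1 1 (0.71), with a mean of 103, lies to the right of the band and above the 95th percentile of the highest decile (0.56). Weak regions scatter more than strong ones.

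Whole reads could be recovered from the deposited means of weak regions. With a mean under 16 there were 21 member regions, and for 16 of them a single set of read numbers in the 4 libraries gave the deposited mean. Their totals ran from 32 to 130 reads over the 4 libraries. The pairing whose ratio lay closest to the deposited fold change set the lowest 2 values against the highest 2 in 7 of these 16 regions, and was another pairing, in which the pairs overlap, in the other 9. The regions with pair averages given above have extreme fold changes and are not typical of the 16. The implied levels come from a fold change fitted to these same reads. Some pairing therefore had to lie near them, and such a match is no separate evidence for the fold change. For the BCL2A1 start region 2 sets gave the mean, 7.17, 9.92, 21.3 and 23.1 or 3.58, 9.92, 18.2 and 29.8 normalized reads. In the first set the lower pair averaged 8.54 and the higher pair 22.2, beside implied levels of 8.57 with vehicle and 22.2 with octanoate. The second set gave ratios of 3.55, 1.82 and 1.19 for its 3 possible pairings, none of them near the 2.59-fold difference of the authors' deposited table.

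**Figure D4:**
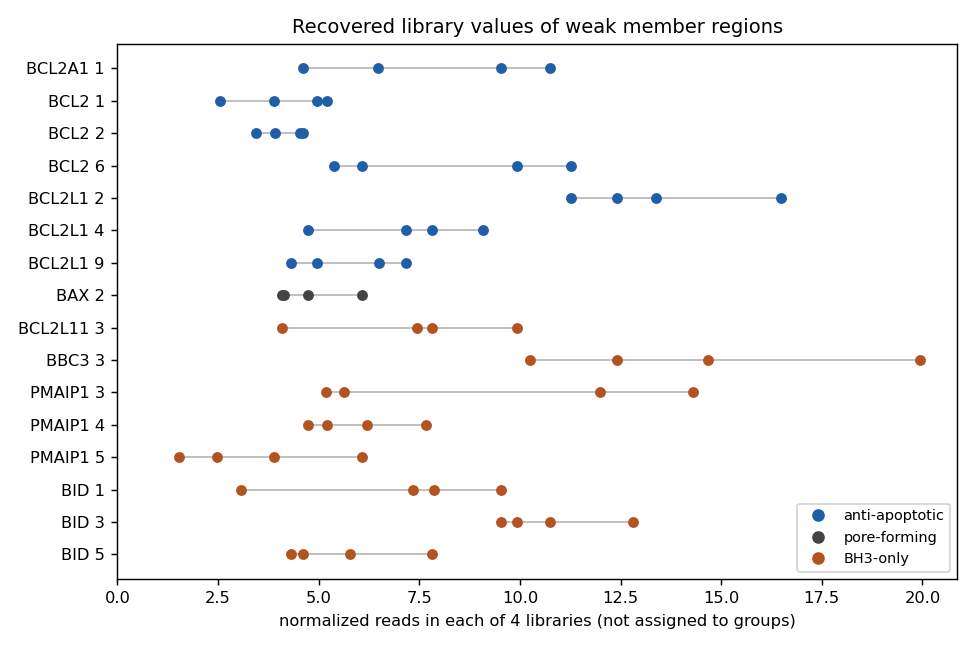
Rows are the 16 weak member regions whose reads could be recovered uniquely, points are the normalized reads of the 4 libraries on the x axis, and the plot assigns no point to a group. PMAIP1 3 has a pair at 5.18 and 5.63 and a pair at 12.0 and 14.3, while BCL2 2 and BAX 2 are narrow.

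Regions of further family genes and of caspase genes were read in the same way, against the 1.02% of tested regions past the threshold and the 3.76% of nuclear regions with an unadjusted p under 0.05. Of 10 further BCL2 family genes, among them the pore-forming BAK1 and BOK, 36 regions were listed and 0 of 5 tested passed the threshold in the authors' deposited table (DESeq2); their median was 0.16 and 0 had an unadjusted p under 0.05. The lowest p of their tested regions was that of a region counted for BCL2L2 (log2 fold change 0.16, SE 0.20, adjusted p 0.736) in the authors' deposited table. The 12 genes of caspase activation and its inhibitors had 39 regions with a median of 0.20, and 0 of 9 tested passed; here too 0 had an unadjusted p under 0.05 (DESeq2). The region at the start of DIABLO, which frees caspases from their inhibitors, had 0.34 (SE 0.18, adjusted p 0.374) in the authors' deposited table. TP73, a transcription factor that can induce BBC3, had 10 regions with a median of 0.36, of which 2 were higher at an unadjusted p under 0.05 and 0 of 2 tested passed the threshold in the authors' deposited table (DESeq2). The tested region with the lower p had 0.58 (SE 0.22, unadjusted p 0.0101, adjusted p 0.168) in the authors' deposited table. TP73 comes from a list that is not reported as a whole and was named after its values were seen.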

How the data were processed

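ATAC-seq libraries of A375 cells, 2 given octanoate and 2 given vehicle, were grouped by their titles. Per the submitters' processing notes the tools included Trim Galore, cutadapt, FastQC, Bowtie2, Picard, MACS2, featureCounts, DESeq2 and bedtools 2.29.1, with build hg38; their settings, any Tn5 shift and the scaling are not given in the sources used here. The authors deposited, per the file headers, a mean normalized read signal, a log2 fold change with its SE, a Wald score, a p-value and an adjusted p-value for each region. The deposited adjusted p equalled Benjamini-Hochberg adjustment over the 11185 regions whose mean reached 63.8; it is listed as 1 elsewhere, which was read as not tested.

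Regions were joined to RefSeq gene spans and promoter windows (GRCh38.p14) with Python 3.11.15 and pandas 2.3.3; starts, which count from 0 in the file, were counted from 1. Intervals are normal 95% intervals from the deposited SE. Centred p-values subtract the median of the tested regions from each fold change and are adjusted over the tested regions. The adjustment, centring and read recovery were checked on simulated data. Multiplied by 4, low means were sums of whole reads times 4 steps of 0.413 to 0.512 normalized reads; of 2000 means under 8, 100% had a solution and 99.9% had 1. Steps were assigned to no sample, so no depth is given for a labelled library; pairs of recovered values were only set beside the group levels implied by the deposited fold change.

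The named regions were each tested region, the strongest, the strongest at a start, those with an unadjusted p under 0.05, and the lowest and highest fold change of each gene; others were added after their values were seen. The members and lists were chosen with earlier results of these data known. Alternatives changed the extension, threshold, adjustment set, centring and the choice of regions or genes. A list of upstream regulators is not reported here as a whole.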

Additional observations from a re-analysis of the deposited data

How the results depend on the processing

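The count of 0 member regions past the threshold held under every alternative run except an adjusted p under 0.1, which gave 1, the region beyond MCL1. Over the whole table the count of 114 became 25 adjusted over every region, 333 at an adjusted p under 0.1, 35 under 0.01, 6 centred on the tested median and 5 centred on the median of all nuclear regions. The members' median of 0.15 ran from 0.12 to 0.18 when each gene was left out in turn, was 0.095 over the strongest region of each gene, and was -0.035 and -0.077 under these centrings, whose subtracted medians exceed it. On the same scales, tested regions changed sign at BCL2A1 (-0.049 and -0.091), BCL2L1 (-0.077 and -0.12), MCL1's span end (-0.011 and -0.054) and PMAIP1 (-0.18 and -0.22); 11 untested regions also changed sign when centred on the tested median, among them the starts of BMF and BID. Regions at or above the median signal gave BCL2 -0.019, and a 50 kb extension gave BAX 0.035; the cause was not tested. Without the extension the MCL1 median was 0.18 instead of 0.44, since 1 region was left.

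No paired analysis was possible because no deposited value belongs to a single labelled library. Leaving out a library, count tests and other scalings of the reads were not run for the same reason.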
